A study of Mus musculus with 18 samples.

Results

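Kinesins are motor proteins that walk along or take apart microtubules, and tubulins are the subunits microtubules are made of. The 54 genes described here were taken from a table of 18909 genes by symbol: 38 kinesins (names in Kif or Kifc) and 16 alpha, beta and gamma tubulins (names in Tuba, Tubb or Tubg). No pseudogene matched. They were sorted by known role into 13 mitotic, 15 transport and 10 ciliary or regulatory kinesins, 7 alpha, 7 beta and 2 gamma tubulins.

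RNA came from cultured tumour lines of C57BL6 mice, B16F10 (melanoma) and E0771 (mammary tumour), grown in RPMI with serum. In either line the controls held the pRetrox vector without an insert, and the other groups were labelled as carrying MRTFA or MRTFB. All groups, controls included, received doxycycline at 500 ng/mL for 48 h to induce the transgene. The 6 groups had 3 libraries each. Whether replicates were separate cultures is not stated, so p-values measure only the spread between these libraries, which may be technical.

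Alpha and beta tubulin pair into the dimers that form microtubules, and gamma tubulin starts new ones. Mitotic kinesins build and pull apart the spindle, transport kinesins carry vesicles, organelles and RNA, and most of the remainder act at cilia or control microtubule length. Both MRTF proteins work with serum response factor, which binds a DNA element called the CArG box, and the pair is known for control of actin and muscle genes.

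Promoter sequences are shown for 3 genes that were higher with MRTFA in E0771 (Kif9, Kif21a, Tuba1c) and 3 that were lower (Kif11, Kif23, Kif20b), so that both directions can be read side by side. Each is the 250 bases before the RefSeq gene start (GRCm38.p6), 5′ to 3′ on the gene's strand and free of annotated exons. Capitals mark CCAAT (a promoter box common in cell cycle genes), TTTGAA (the core of the cell cycle homology region) or a CArG box, on either strand, so that CCAAT also appears as ATTGG.
Kif9, chr9:110476708-110476957, plus strand: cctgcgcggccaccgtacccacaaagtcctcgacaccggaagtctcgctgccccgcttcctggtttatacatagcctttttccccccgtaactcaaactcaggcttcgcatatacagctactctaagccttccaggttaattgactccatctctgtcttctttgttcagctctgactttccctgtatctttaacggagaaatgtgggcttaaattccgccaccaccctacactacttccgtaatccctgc
Kif21a, chr15:91049952-91050201, minus strand: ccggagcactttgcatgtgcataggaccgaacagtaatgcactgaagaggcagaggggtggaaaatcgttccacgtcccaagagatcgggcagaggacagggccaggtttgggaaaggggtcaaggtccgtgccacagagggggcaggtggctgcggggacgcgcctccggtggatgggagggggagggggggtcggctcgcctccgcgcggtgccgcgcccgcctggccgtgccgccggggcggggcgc
Tuba1c, chr15:99029641-99029890, plus strand: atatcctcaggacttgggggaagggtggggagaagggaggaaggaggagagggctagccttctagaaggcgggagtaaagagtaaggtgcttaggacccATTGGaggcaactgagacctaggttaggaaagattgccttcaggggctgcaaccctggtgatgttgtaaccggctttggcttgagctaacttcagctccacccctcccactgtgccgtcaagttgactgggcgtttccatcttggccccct
Kif11, chr19:37376132-37376381, plus strand: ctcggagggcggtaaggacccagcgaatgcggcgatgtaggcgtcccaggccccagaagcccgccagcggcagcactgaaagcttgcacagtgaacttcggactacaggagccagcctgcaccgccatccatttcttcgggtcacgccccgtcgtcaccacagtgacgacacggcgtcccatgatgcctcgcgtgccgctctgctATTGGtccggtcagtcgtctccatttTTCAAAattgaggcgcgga
Kif23, chr9:61946800-61947049, minus strand: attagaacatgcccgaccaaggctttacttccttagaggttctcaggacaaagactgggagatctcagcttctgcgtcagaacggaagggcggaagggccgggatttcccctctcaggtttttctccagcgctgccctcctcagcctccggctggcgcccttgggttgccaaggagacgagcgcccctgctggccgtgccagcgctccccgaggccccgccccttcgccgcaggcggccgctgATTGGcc
Kif20b, chr19:34922108-34922357, plus strand: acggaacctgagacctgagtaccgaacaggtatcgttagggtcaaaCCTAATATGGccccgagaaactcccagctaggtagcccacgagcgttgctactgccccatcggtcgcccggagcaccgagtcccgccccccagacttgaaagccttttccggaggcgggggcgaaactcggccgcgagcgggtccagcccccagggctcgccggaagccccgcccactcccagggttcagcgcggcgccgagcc

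A RefSeq promoter was matched for 43 of the 54 genes. CCAAT was found in 48.84% of those windows and in 34.46% of 27025 promoters of all genes searched in the same way, and among the 12 mitotic kinesins with a promoter 8 held it. TTTGAA was found in 18.6% of the members' windows and in 16.27% of all, with 5 of the 12 mitotic kinesins holding it. A CArG box was found in 1 member, Kif20b, or 2.33%, against 1.4% of all promoters. Tubb6, Kif5b and Kifc3 (higher with MRTFA in E0771) and Kif20a and Tubb2b (lower) had no matched promoter and were not searched. By call with MRTFA in E0771, CCAAT was in 1 of 6 higher, 3 of 6 lower and 13 of 22 uncalled members. TTTGAA was in 0 of 6 higher, 1 of 6 lower and 5 of 22 uncalled members. The lower members Kif18a and Tuba1b, not printed, held no motif. These matches describe letters in a window and are not evidence of binding.

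The libraries held 27607055 to 37116655 reads. Tubulins took 0.336% to 0.460% of them and kinesins 0.232% to 0.329%. Melanocyte marker genes summed to between 561637 and 757748 scaled reads (reads divided by the library's size factor) in B16F10 and 369 to 636 in E0771, and 6 mammary epithelial markers to 18.1 to 158 in B16F10 and 5845 to 17168 in E0771. In E0771 that epithelial sum is nearly all Krt8, and Cdh1 ran the other way (74.1, 66.2 and 27.7 in B16F10 control, 4.03, 5.01 and 4.67 in E0771 control). Within E0771 the sum was 5845 to 7924 in control and 15156 to 17168 with MRTFA, and the part of this shift in the results below was not tested. Mkl1, which encodes MRTFA, was higher in E0771 with MRTFA (log2 difference 3.34) but did not pass the test in the B16F10 libraries labelled MRTFA (0.22, limma adjusted p = 0.856), where 4 of 6 actin genes rose. The labels do not give the species or coding sequence of the transgene, so how much of it these gene counts capture is not known. Mkl2, which encodes MRTFB, was higher in E0771 with MRTFB (0.68) and did not pass in B16F10 with MRTFB (0.35, adjusted p = 0.503). As these are bulk samples, fewer cells of a type and less RNA per cell cannot be told apart.

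Levels can be compared between genes as scaled reads per kilobase of exon. Among tubulins, Tubb5, a widely used beta isotype, was highest in both control groups, at 19008 ± 820 in B16F10 and 15759 ± 1387 in E0771 (SD, n = 3), and Tubb4b came next at 8809 ± 787 and 8401 ± 829. In B16F10 Tubb4b and the alpha tubulin Tuba1a, at 8749 ± 812, did not differ beyond their spread. Among kinesins, Kif5b, a heavy chain of conventional kinesin, led in B16F10 at 2580 ± 169, and Kif20a, a motor of cell division, led in E0771 at 1396 ± 49.0.

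**Figure D1:**
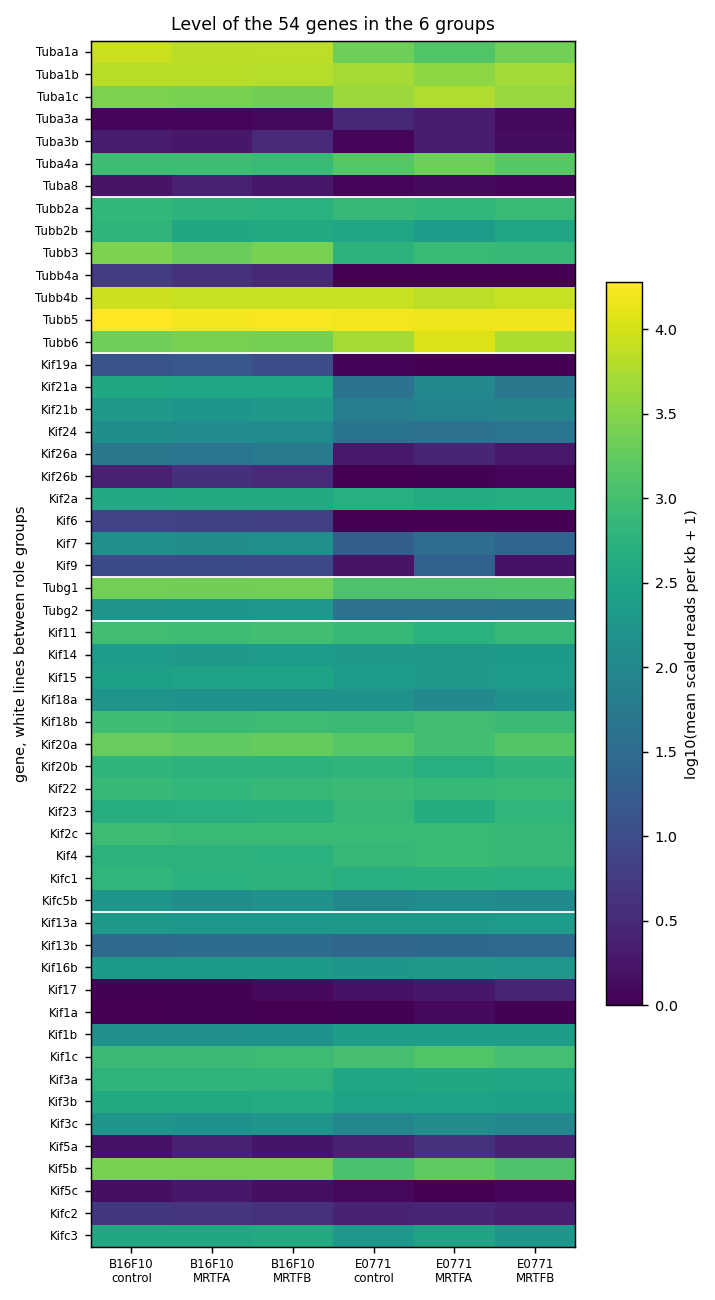
Heat map of the mean level of the 54 genes (rows, by role) in the 6 groups (columns), as log10 of scaled reads per kilobase plus 1. Tubb5 is the highest in all 6 columns, Tubb6 lies above Tubb4b in E0771 with MRTFA, and Kif6 and Tubb4a are at 0 in E0771.

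A gene was tested in a line when its scaled value was at least 10 in at least 3 libraries of that line, and called at a limma adjusted p under 0.05. Of the 54 members, 43 were tested in E0771 and 46 in B16F10. The rest were near or at 0: in E0771, for instance, Kif6 and Tubb4a had no read in any library.

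With MRTFA in E0771, 17 of the 43 tested members were called, 9 higher and 8 lower, where 38.4% of all tested genes were called (20.3% higher, 18.1% lower). The members' share lay near that background. Without MRTFA replicate 2 the members called were 11 of 42, 6 higher and 5 lower, and the share over all genes was 25.6%. By role, mitotic kinesins had 5 lower and none higher of 13 tested, transport kinesins 3 higher and none lower of 11, ciliary and regulatory kinesins 3 higher and none lower of 7 (Kif9 among them, tested only through its MRTFA libraries, so that it had to differ), alpha tubulins 2 higher and 2 lower of 4, and beta tubulins 1 higher and 1 lower of 6. Neither gamma tubulin was called. Mitotic kinesins called fell to 3 without MRTFA replicate 2, where 25.6% of all genes were called. Transport kinesins fell to 1 with upper-quartile scaling (41.3% of all genes), without control replicate 3 (33.6%) or without MRTFA replicate 1 (28.2%). Ciliary and regulatory kinesins also fell to 1 without MRTFA replicate 1 (28.2%). Beta tubulins fell to 1 without control replicate 1 (30.1%), MRTFA replicate 2 (25.6%) or MRTFA replicate 3 (34.5%). The median log2 difference was 0.07 over the members and −0.02 over all genes.

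**Figure D2:**
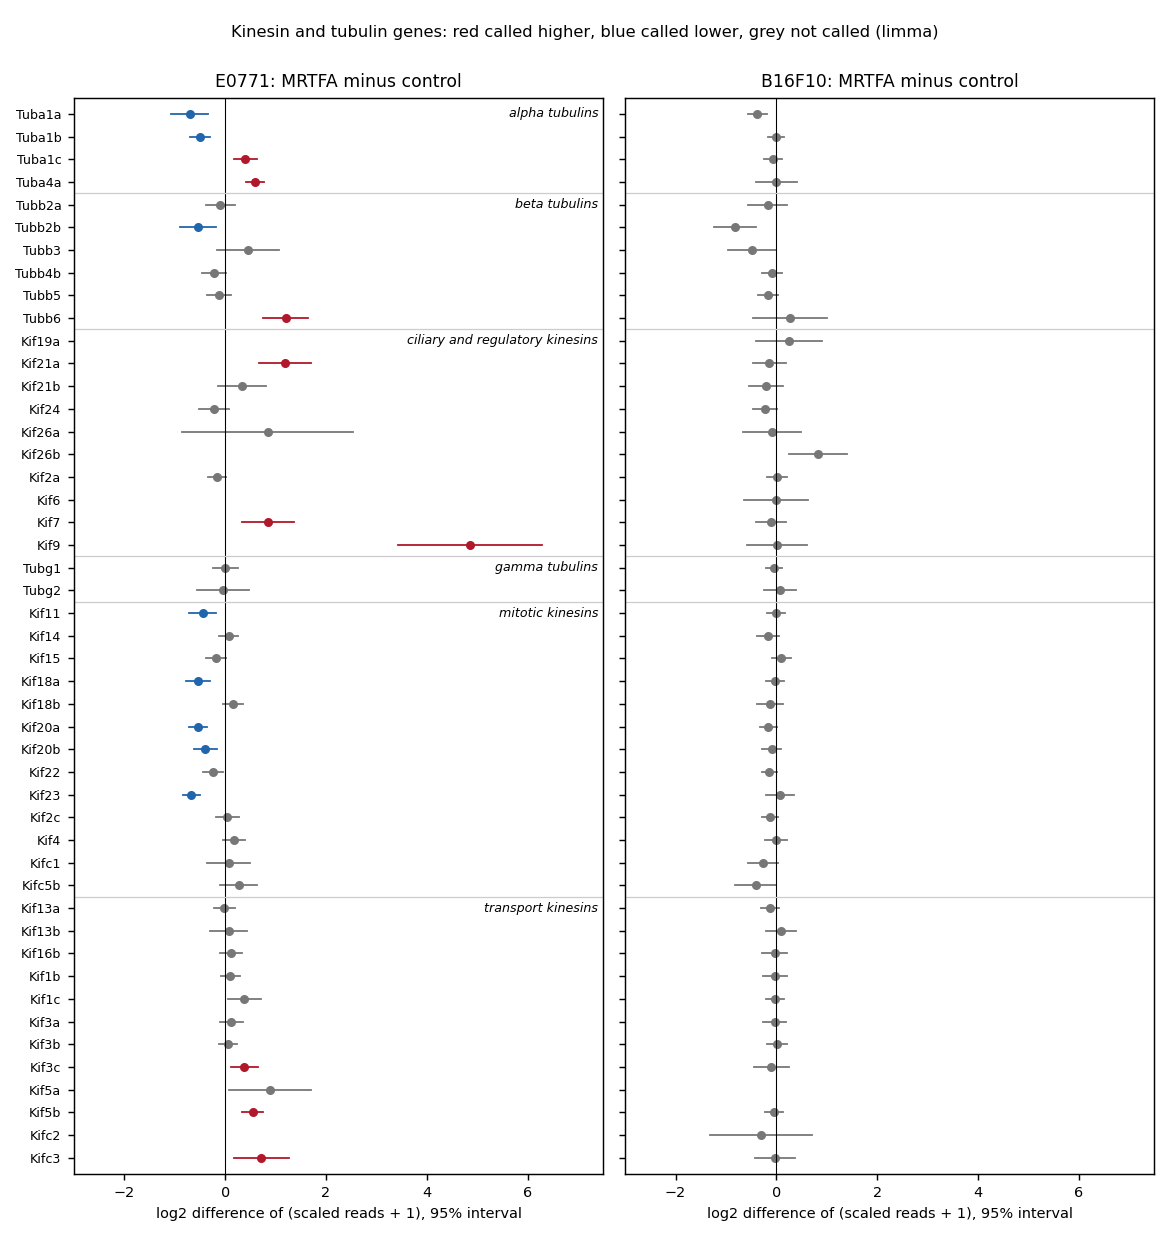
Log2 difference between MRTFA and control libraries for each tested gene, with its 95% interval, in E0771 (left) and B16F10 (right). Red and blue mark genes called higher and lower; in E0771 these are 9 and 8 genes, and in B16F10 every gene is grey.

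Of the 5 mitotic kinesins that fell, Kif23 carries the centralspindlin complex to the middle of the spindle for cytokinesis. It read 5993, 5381 and 5615 scaled reads in E0771 control libraries and 3537, 3594 and 3529 with MRTFA. Every MRTFA library lay below every control library, and the log2 difference was −0.67 ± 0.08 (SE, adjusted p = 7.18e-05). Kif20a, which brings the chromosomal passenger complex to the midzone, went from 6284, 5862 and 6025 to 3921, 4087 and 4577. Its groups did not overlap (−0.53 ± 0.08, adjusted p = 0.000542). Kif20a shares 29.3% of its exon bases with Cdc23 on the other strand, whose mean was 2979 in control and 3037 with MRTFA. Kif18a, which limits chromosome movement at the metaphase plate, had 1615, 1399 and 1434 in control and 954, 982 and 1126 with MRTFA (−0.54 ± 0.11, adjusted p = 0.00247).

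Kif20b, another cytokinesis motor, had 4775, 4137 and 4240 in control and 3428, 3225 and 3344 with MRTFA. Kif11, the motor that pushes spindle poles apart, had 6307, 5186 and 5165 and then 4212, 4024 and 3955. Neither gene's groups overlapped. The log2 differences were −0.39 ± 0.10 for Kif20b (adjusted p = 0.0122) and −0.44 ± 0.12 for Kif11 (adjusted p = 0.015). Both calls were lost when 1 library was left out: MRTFA replicate 2 for either gene (adjusted p = 0.0532 and 0.0522), and control replicate 1 for Kif11 (0.0596). The other 8 mitotic kinesins were not called and ranged from −0.24 (Kif22, adjusted p = 0.0616) to 0.27 (Kifc5b), with Kifc1, a minus-end motor that gathers spindle poles, at 0.07.

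Other genes of division moved too. Of 30 mitosis genes without a kinesin name, 20 were lower and 3 higher, and of 20 DNA replication genes 15 were lower and 1 higher, beside 18.1% lower and 20.3% higher over all genes. Their part in the kinesin result was not tested.

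**Figure D3:**
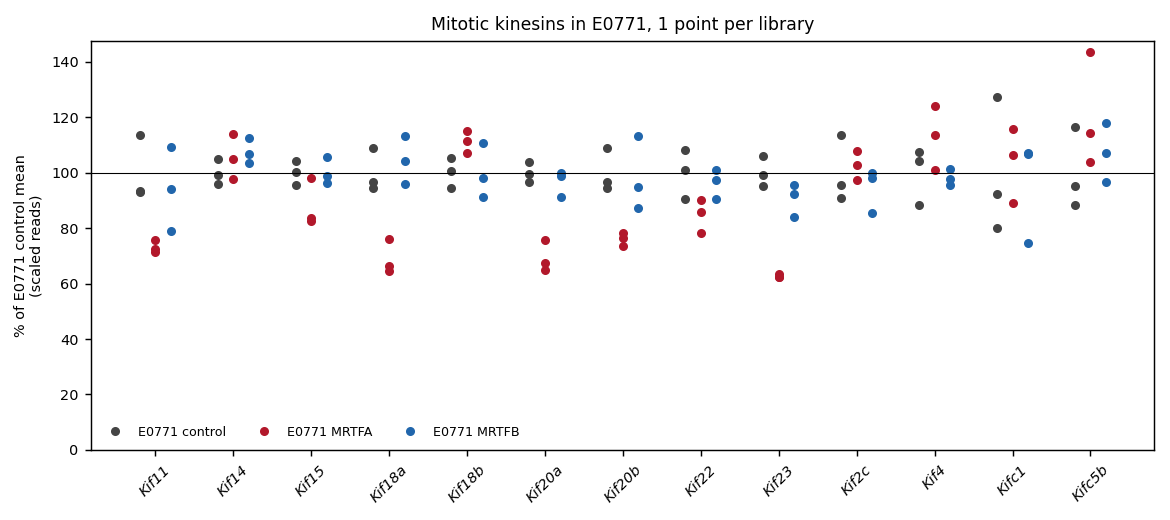
Scaled reads of the 13 mitotic kinesins in E0771 as a percent of the control mean, 1 point per library. For Kif11, Kif18a, Kif20a, Kif20b and Kif23 the MRTFA points (red) lie below the control points (dark), and the MRTFB points (blue) overlap the control points in all 5 except Kif23, where they reach just into the control range.

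Among transport kinesins, Kif5b had 7849, 9130 and 9702 scaled reads in E0771 control libraries and 11880, 13711 and 13379 with MRTFA. All 3 MRTFA libraries were above the control libraries (0.55 ± 0.10, adjusted p = 0.0012). Kif3c, a subunit of a kinesin-2 motor, had 753, 656 and 719 and then 1050, 846 and 883 (0.38 ± 0.12, adjusted p = 0.0321). That call was lost with upper-quartile scaling (0.32, adjusted p = 0.0656) and in 3 of the 6 fits that left out 1 library, those without control replicate 2 or 3 or MRTFA replicate 1, at adjusted p = 0.0963, 0.0656 and 0.127. Kif3c also shares 35.34% of its exon bases with an antisense gene, and reads of the pair cannot be told apart without strand.

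Kifc3, a minus-end motor that lies outside the naming rule and was chosen after its values were seen, had 766, 1340 and 955 in control and 1787, 1848 and 1326 with MRTFA. Its groups overlapped (0.72 ± 0.25, adjusted p = 0.0425), and the call was lost with upper-quartile scaling (0.66, adjusted p = 0.0511) and in 4 of the 6 fits without 1 library (control replicate 1 or 3, MRTFA replicate 1 or 2), with adjusted p from 0.0941 to 0.156. Kif1c, which moves vesicles, was not called by limma (0.38, adjusted p = 0.0655) and was by DESeq2 (0.40, adjusted p = 0.0340). With limma it also passed without control replicate 2 (0.0288) or MRTFA replicate 3 (0.0487) and with the replicate block (0.0246). Kif3a, a motor of transport within cilia, was not called (0.12, adjusted p = 0.398).

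The largest change was in Kif9, a kinesin linked to the beating of cilia and flagella (chr9:110476708-110476957 is the promoter printed above). It had 0, 6.01 and 2.80 scaled reads in E0771 control libraries and 82.7, 94.7 and 80.5 with MRTFA. The groups were far apart, and the log2 difference was 4.86 ± 0.64 (adjusted p = 0.000197). In E0771 Kif9 passed the filter on low values only through the MRTFA libraries, so it had to differ, and at 9 reads over the 3 control libraries the size of the difference is imprecise. In B16F10 controls it already read 39.4, 24.3 and 40.1.

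Kif21a, which slows microtubule growth at the cell edge, had 259, 243 and 312 in control and 528, 475 and 917 with MRTFA. MRTFA replicate 3 was the highest and the groups did not overlap (1.18 ± 0.23, adjusted p = 0.00261). Kif7, which works in Hedgehog signalling at the tip of the cilium, had 89.6, 99.1 and 69.1 and then 207, 146 and 121 (0.85 ± 0.23, adjusted p = 0.0141). The Kif7 call was lost without control replicate 3 (adjusted p = 0.0524) or MRTFA replicate 1 (0.0563). Kif2a, which takes microtubules apart from their ends, was not called (−0.16, adjusted p = 0.151).

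The tubulins changed in opposite directions within a family. Tubb6, a broadly expressed beta isotype, had 9563, 13899 and 12755 scaled reads in E0771 control libraries and 27179, 30988 and 24331 with MRTFA. The lowest MRTFA library was well above the highest control library (1.20 ± 0.20, adjusted p = 0.00109). Tubb2b, a beta isotype known from neuronal migration, had 817, 869 and 575 and then 557, 526 and 456 (−0.54 ± 0.16, adjusted p = 0.0255). This call was lost in 4 of the 6 fits without 1 library (control replicate 1 or 2, MRTFA replicate 2 or 3), with adjusted p from 0.0617 to 0.0882. Tubb5 (−0.11, adjusted p = 0.44) and Tubb3, the isotype used as a neuronal marker (0.45, adjusted p = 0.232), were not called, and neither was the gamma tubulin Tubg1, which nucleates microtubules (0.00, adjusted p = 0.998). Tubb3 did pass with limma without control replicate 2 (0.76, adjusted p = 0.0308) and with the replicate block (0.45, adjusted p = 0.0171).

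Tuba1a, Tuba1b and Tuba1c lie within 106.7 kb of each other on chromosome 15. Tuba1b had 9806, 9965 and 8756 in E0771 control and 6467, 7191 and 6478 with MRTFA (−0.50 ± 0.09, adjusted p = 0.0015). Tuba1a, the main alpha tubulin of developing neurons, had 4204, 4275 and 3060 and then 2285, 2700 and 2054 (−0.71 ± 0.16, adjusted p = 0.00641). Both fell without overlap between groups. Tuba1a shares 26.23% and Tuba1b 22.72% of its exon bases with Gm49450, a protein-coding gene on the same strand. Gm49450 was not among the genes with values, and whether the annotation used held it is not known.

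Their neighbour Tuba1c instead had 9849, 10002 and 10329 in control and 11436, 14496 and 13985 with MRTFA, again without overlap (0.40 ± 0.10, adjusted p = 0.012). The Tuba1c call was lost without MRTFA replicate 2 (adjusted p = 0.0612). Tuba4a, whose product is made without the usual end tyrosine, had 5476, 5360 and 4915 and then 7355, 8472 and 7926 (0.59 ± 0.08, adjusted p = 0.0003). Tuba4a shares 37.26% of its exon bases with the antisense gene Stk16, whose mean was 2092 in control and 1634 with MRTFA. Near-identical tubulin genes may share reads, so the split between them is uncertain.

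**Figure D4:**
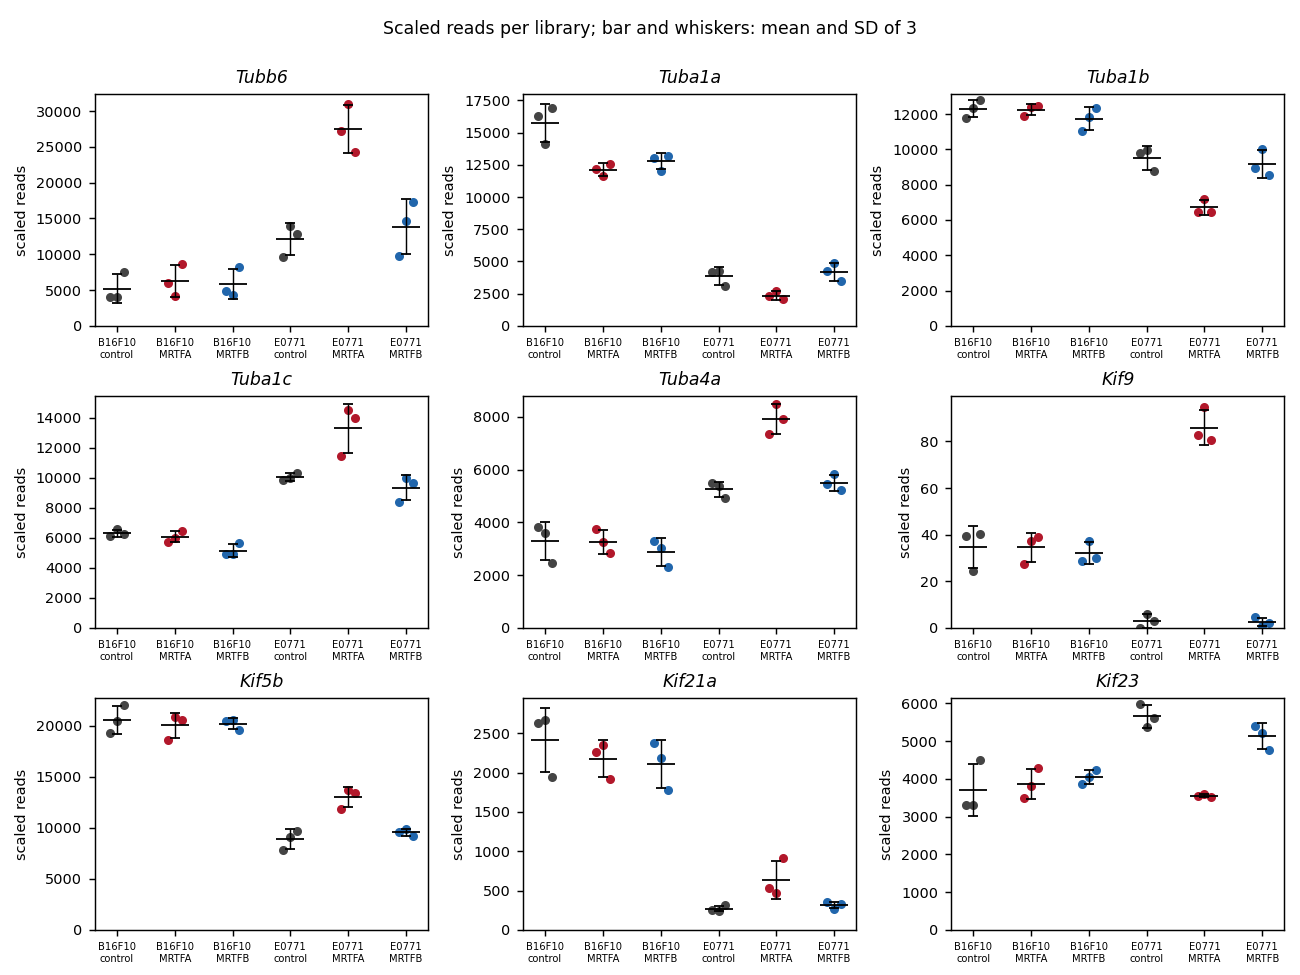
Scaled reads of 9 members in every library, with the mean and SD of each group of 3; each panel has its own axis from 0. In E0771, the MRTFA points of Tubb6, Tuba1c, Tuba4a, Kif9, Kif5b and Kif21a lie above the control points, and those of Tuba1a, Tuba1b and Kif23 below.

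Expressed as shares of all beta tubulin reads per kilobase, Tubb6 made up 13.8%, 16.5% and 17.8% in E0771 control libraries and 31.6%, 33.8% and 31.9% with MRTFA. Tubb5 went from a mean of 51.3% ± 1.27 to 42.0% ± 1.37 and Tubb4b from 27.3% ± 0.81 to 20.7% ± 0.53 (SD, n = 3). Among alpha tubulins Tuba1c went from 33.9% ± 2.69 to 45.2% ± 2.44 and Tuba4a from 10.9% ± 0.18 to 16.7% ± 0.29, while Tuba1b went from 38.9% ± 0.60 to 27.9% ± 1.35. Shares add up to the whole, so a larger share for 1 gene lowers the others by construction. The summed alpha tubulin level was 13024 ± 706 per kilobase in control and 12841 ± 1128 with MRTFA, and the groups overlapped. The summed beta tubulin level was 30758 ± 3246 in control and 34718 ± 3214 with MRTFA, also with overlap.

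**Figure D5:**
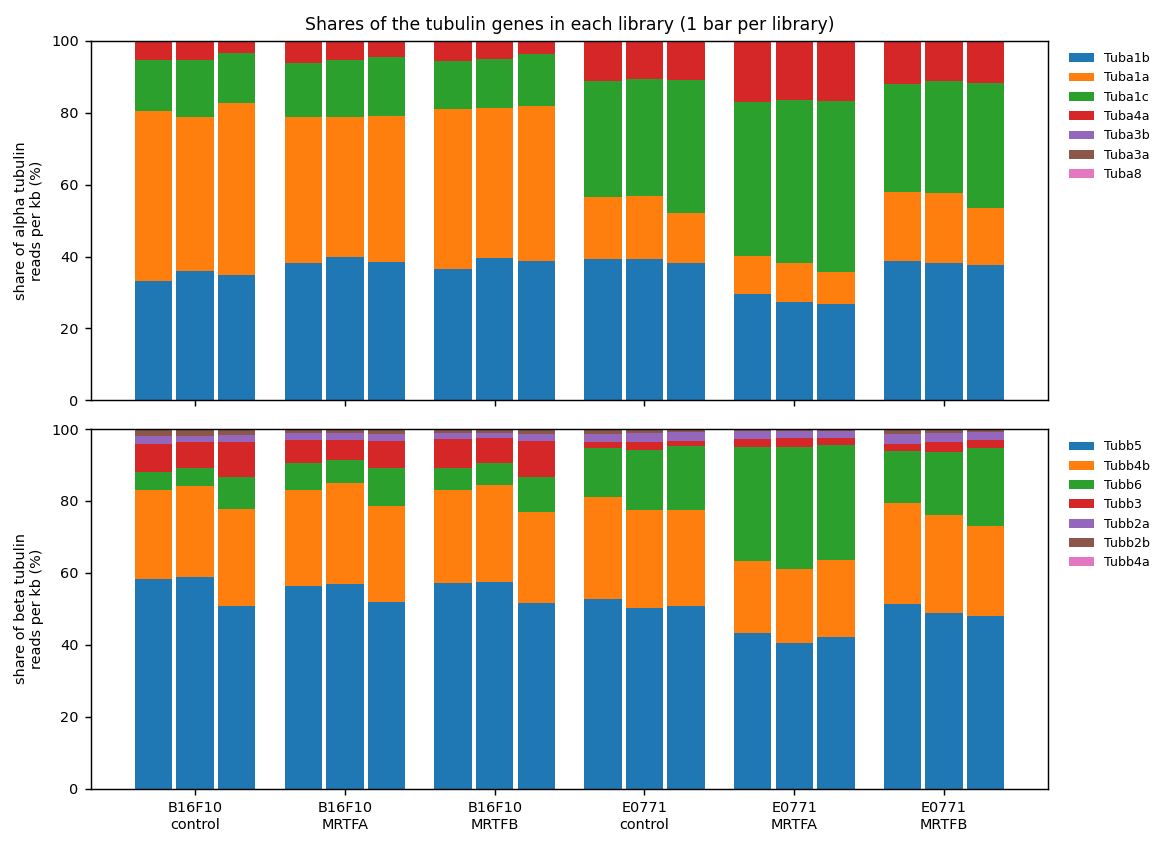
Share of each alpha (top) and beta (bottom) tubulin gene in the reads per kilobase of its family, 1 bar per library, 3 bars per group. The Tubb6 segment is 32.5% on average in E0771 with MRTFA, against 16.1% in E0771 control and 6.20% in B16F10 control.

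Genes that work with microtubules, from lists of known function, were read beside the members and beside the 38.4% called over all genes. Among microtubule-associated proteins and stathmins 8 were higher and 3 lower of 16 (68.8% called), among them Map1a (log2 difference 1.66) and Dclk1 (2.01). Map9 is 1 of the 8 but was tested only through its MRTFA libraries, at 74.7, 57.6 and 48.1 against 0, 0 and 0.934 in control. Plus-end proteins had 6 higher and 1 lower of 14, or 50% (Clip1 −0.73, Clip3 2.31, Mapre1 0.51), and dynein and dynactin 6 higher of 23, or 26.1% (Bicd2 1.0, Dctn6 0.52, Dctn1 1.16). Kinesin light chains and cargo adaptors, which link Kif5 heavy chains to cargo, had 4 higher of 12 (33.3%), among them Klc2 (1.19), Klc4 (1.61) and Klc1 (0.37).

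Tubulin folding factors had 9 lower and none higher of 21, or 42.9% (Cct8 −0.46, Cct6a −0.43, Pfdn6 −0.32) and the gamma-tubulin complex 4 lower of 11, or 36.4% (Tubgcp2 −0.60, Tubgcp3 −0.39, Mzt1 −0.29). Tubulin-modifying enzymes had 4 higher and 2 lower of 15, or 40% (Ttll11 2.09, Ttll7 1.58, Ttll3 1.16), severing proteins 1 lower of 6 (Fignl1 −0.57), and neither of 2 further tubulins was called. For comparison, all 6 actin genes rose in the same libraries: Actc1 by 13.53, Acta1 by 10.26, Actg2 by 8.58, Acta2 by 5.23, Actb by 1.49 and Actg1 by 1.41 on the log2 scale.

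In the B16F10 libraries labelled MRTFA, none of the 46 tested members was called by limma, where 1.55% of all tested genes were. Of the other tools, edgeR called none and DESeq2 called 2 (2.64% of all genes). An unadjusted limma p under 0.05 was found for 4 members. The share of all genes at that level was not computed, so this count has no background. In the same libraries Actc1 (10.58), Acta1 (9.78), Actg2 (9.96) and Acta2 (7.07) rose, and Actg1 (0.57, adjusted p = 0.067) and Actb (0.41, adjusted p = 0.352) did not pass. Equal replicate numbers deviated together here, and with replicate number as a block 4 members were called (6.33% of all genes). These were Tubb2b (−0.82, blocked adjusted p = 0.00143), Tuba1a (−0.38, 0.00155), Tubb3 (−0.48, 0.00155) and Kif26b (0.83, 0.0479).

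Tubb2b, chosen like Kif26b after its values were seen, read 1500, 1418 and 1444 in B16F10 control and 812, 669 and 1020 with MRTFA. Tuba1a read 16267, 14128 and 16930 and then 12180, 11615 and 12576. In both genes all MRTFA libraries were below all control libraries. Tubb3 read 4845, 4384 and 6513 and then 3946, 2896 and 4469, with overlap. Kif26b read 21.2, 22.4 and 22.0 and then 35.3, 52.8 and 33.4, higher in every MRTFA library.

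The remaining anchor genes, named in each comparison whatever their result, did not pass in B16F10 with MRTFA. Kif5b was at −0.04, Kif3a at −0.04, Kif1c at −0.02, Kif11 at −0.01, Kif23 at 0.07, Kifc1 at −0.26, Kif2a at 0.02, Tuba1b at −0.01, Tuba1c at −0.06, Tubb5 at −0.17, Tubb6 at 0.27 and Tubg1 at −0.05. Tubb6 read 4045, 3986 and 7549 in control and 5979, 4170 and 8568 with MRTFA, so replicate 3 was high in both groups.

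In the B16F10 libraries labelled MRTFB no member was called by limma (background 0.126%), edgeR or DESeq2. An unadjusted limma p under 0.05 was found for 4, again without a share over all genes. With replicate number as a block, 3 were called (4.46% of all genes): Tubb2b (−0.70, blocked adjusted p = 0.00969), Tuba1a (−0.30, 0.0137) and Tuba1c (−0.29, 0.0228). Tuba1c read 6095, 6565 and 6243 in control and 4924, 4900 and 5636 with MRTFB, and Tubb2b 883, 703 and 1160 with MRTFB, both below every control library. The other anchors were Kif5b at −0.03, Kif3a at −0.01, Kif1c at 0.05, Kif11 at 0.09, Kif23 at 0.14, Kifc1 at −0.18, Kif2a at 0.06, Tuba1b at −0.07, Tubb3 at −0.10, Tubb5 at −0.11, Tubb6 at 0.17 and Tubg1 at 0.01.

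With MRTFB in E0771 none of the 43 tested members was called by limma (background 0.144%), edgeR or DESeq2. None had an unadjusted limma p under 0.05, and the share of all genes at that level was not computed. The actin genes Acta2 (1.83), Acta1 (3.54) and Actg2 (1.91) rose in these libraries. Tubb6 read 9699, 14583 and 17314 with MRTFB, overlapping the control libraries (0.18). Kif9 read 4.50, 0.941 and 2.21, also within the control range. The other anchors were Kif5b at 0.11, Kif3a at −0.01, Kif1c at −0.07, Kif11 at −0.10, Kif23 at −0.14, Kifc1 at −0.05, Kif2a at −0.05, Tuba1a at 0.13, Tuba1b at −0.05, Tuba1c at −0.11, Tubb3 at 0.30, Tubb5 at −0.04 and Tubg1 at 0.06.

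Set directly against MRTFA, MRTFB libraries of E0771 had 17 of 43 members called, 8 higher and 9 lower (background 33.6%, with 14.5% higher and 19.1% lower); without MRTFA replicate 2 it was 10, with 20.2% of all genes. This comparison uses the same MRTFA libraries as the one with control. Lower with MRTFB were Kif9 (−4.74), Tuba4a (−0.53), Tubb6 (−1.02), Tuba1c (−0.51) and Kif5b (−0.44). Kif9, counted among the 9 lower, was tested only through its MRTFA libraries, so that it had to differ. Higher were Kif23 (0.53), Kif20a (0.48), Kif18a (0.60), Tuba1a (0.84) and Tuba1b (0.45). In B16F10 no member was called between MRTFB and MRTFA (background 1.09%), and with the replicate block Tubb3 alone was (0.38, blocked adjusted p = 0.00955), as were 2.66% of all genes.

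Whether an effect differed between the lines was tested as E0771 minus B16F10. For MRTFA 10 of 47 members were called, 5 in each direction, where 21.1% of all genes were (12.6% more positive, 8.55% more negative). With a replicate block it was 19, against 34.8% of all genes. The effect was more positive in E0771 for Kif9 (difference 4.85), Kif5b (0.59), Kif21a (1.32), Kif7 (0.96) and Tuba1c (0.45), and more negative for Kif23 (−0.74), Tuba1b (−0.50), Kif18a (−0.51), Kif20a (−0.37) and Kif11 (−0.43). The Kif11 call was lost in 9 of the 12 fits that left out 1 library (any library but control replicate 1 of B16F10 or control replicates 2 and 3 of E0771), with adjusted p from 0.0623 to 0.126. The Kif20a call was lost in 6 of them (control replicate 1 or 2 or MRTFA replicate 3 of B16F10, control replicate 1 or MRTFA replicate 1 or 2 of E0771), at 0.0510 to 0.0592. Without E0771 MRTFA replicate 2 the Tuba1c call was lost (adjusted p = 0.0644), and without B16F10 MRTFA replicate 2 that of Kif7 (0.0539). For Tubb6, named here after its value was seen, the difference was 0.93 ± 0.43 and did not pass (adjusted p = 0.139). The counts on Mkl1, which may not capture the transgene in full, were raised in E0771 and did not pass in B16F10, and their part in these differences was not tested. For MRTFB no member was called (background 0.114%). An unadjusted limma p under 0.05 was found for 2, without a share over all genes. With line and replicate as a block, Tuba1a was called (0.43, blocked adjusted p = 0.0419), with 0.545% of all genes.

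The control lines themselves differed in 36 of 47 tested members, 9 higher and 27 lower in E0771, against 70.2% of all genes (33.4% higher, 36.8% lower). Kif6, Kif19a and Kif26b reached the minimum of 10 only in B16F10 libraries, so they had to differ. Of the 44 tested members that reached it in some library of both lines, 33 were called, 9 higher and 24 lower. Transgene libraries counted here, and the background has no such restriction. Kif9, Kifc2 and Kif5a are among the 33 but stayed under 10 in every control library of 1 line. Kif9 (0, 6.01 and 2.80) and Kifc2 (6.04, 5.01 and 8.41) did so in E0771, and Kif5a (6.73, 2.92 and 3.82) in B16F10. The 33 included all 7 ciliary and regulatory kinesins over the minimum in both lines, 1 higher and 6 lower, with Kif9 among the lower. Kif6 had 116 reads over the B16F10 controls and 0 over the E0771 controls, at least 39.5-fold higher in B16F10 against a floor of 3 reads over the group. Kif19a, which shortens microtubules at cilium tips, had 149 reads against 1, a ratio of 152 (exact 95% interval 26.9 to 6056, counting error only). Tubb4a, too low to be tested, had 32 reads against 0, at least 10.9-fold.

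Among better covered genes, Kif7 (log2 difference −2.91), Kif21a (−3.14) and Tuba1a (−2.05) were lower in E0771. Kif1b, a carrier of vesicles and mitochondria (0.72), Tuba1c (0.68), Kif23 (0.62), Tuba4a (0.70) and Tubb6 (1.27) were higher. Tuba1a was 46.1% ± 2.73 of alpha tubulin reads per kilobase in B16F10 control and 16.3% ± 2.09 in E0771 control, and the libraries of the 2 lines did not overlap.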

How the data were processed

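RNA was measured in 18 libraries, whose titles gave line, construct and replicate. Per the submitters' processing notes, cutadapt 1.6, STAR 2.5.0a, HTSeq 0.5.3 and DESeq were used with mm10; no version of DESeq, annotation release, strandedness or counting mode is given in the sources used here. Values as deposited are a signal for each gene, reads that the authors divided by a size factor, and 100% of values were whole reads within 0.001 read after that step was undone. Members and lists were chosen with earlier results of these data known. limma 3.58.1 (trend) was fitted to log2 of the value plus 1, per line or over all 18 libraries, with two-sided Benjamini-Hochberg adjusted p-values over all tested genes; edgeR 4.0.16 and DESeq2 1.42.0 on recovered reads, other pseudocounts, filters and scalings, left-out libraries and a replicate block were alternatives. The fit was tested on simulated data. Fold changes on this scale understate those of low genes.

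Named members were, by rule, the called members (at most 8 per direction, or 5 in the comparisons without control) and 14 anchors in every comparison with control; up to 3 called genes were named per list. Tubb2b and Kif26b in B16F10, Kifc3 in E0771 and Tubb6 in the line difference fall outside the rule. Replicate numbers were read as pairs where the deviations of equal-numbered libraries correlated above 0.1 in every pair, for example 0.353, 0.416 and 0.567 for MRTFA in B16F10; MRTFA against control in E0771 (0.0842, 0.461 and 0.525) was not. No label says what a replicate number marks. Genes were placed with GENCODE M21 (GRCm38), which held all 54 members. Without molecular identifiers, intervals and floors cover counting error only.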

Additional observations from a re-analysis of the deposited data

Results flagged for a closer look

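For 10 of 47 tested members the test of the difference between lines in the MRTFA effect passed (limma adjusted p under 0.05). Over all tested genes 21.1% passed, so the members lay near that background. Values are log2, E0771 minus B16F10. Kif9 differed by 4.85, Kif21a by 1.32, Kif7 by 0.96, Kif5b by 0.59 and Tuba1c by 0.45, more positive in E0771. Kif23 differed by −0.74, Kif18a by −0.51, Tuba1b by −0.50, Kif11 by −0.43 and Kif20a by −0.37, more negative in E0771. Of 12 fits that left out 1 library, the Kif11 call was lost in 9 and the Kif20a call in 6. The Kif7 and Tuba1c calls were lost in 1 each. Counts on Mkl1, which may not capture the transgene in full, were raised in the E0771 libraries labelled MRTFA and did not pass the test in the B16F10 ones, and their part in these differences was not tested.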

How the results depend on the processing

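For MRTFA in B16F10 the members called went from 0 (1.55% of all genes) to 2 with DESeq2 (2.64%) and 4 with the replicate block (6.33%). They were 0 to 1 over fits leaving out 1 library. With the replicate block, MRTFB in B16F10 had 3 (4.46% of all genes in place of 0.126%). MRTFB against MRTFA in B16F10 had 1 (2.66% in place of 1.09%). The line difference of the MRTFB effect had 1 (0.545% in place of 0.114%). That of the MRTFA effect, whose numbers were not read as pairs, had 19 in place of 10 (34.8% in place of 21.1%). The block gave 22 in place of 17 for MRTFA in E0771 (48.6% of all genes in place of 38.4%), also not read as pairs, and changed no count of the other comparisons by over 1.5 times. Leaving out 1 library gave 11 to 18 for MRTFA in E0771 (25.6% to 35.2% of all genes) and 10 to 17 for MRTFB against MRTFA in E0771 (20.2% to 33.5% of all genes); the cause was not tested. Without length correction Tuba4a was 18.3% of alpha tubulin reads in E0771 control and 26.2% with MRTFA. Other shares moved as well. Without the correction that of Tubb5 was higher, and those of Tubb4b and Tuba1b were lower, in both groups. The direction of their change with MRTFA stayed the same.

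Of 121 values of single genes, role groups and isotype shares, 23 changed sign under some alternative. All 23 are single genes, as the counts of role groups and the shares cannot change sign. The largest of these was 0.18 (log2) and none was called. The anchors were named by rule in every comparison with control, so values near 0 are among them. Sign changes outside left-out libraries were Tuba1b for MRTFA in B16F10 with upper-quartile scaling (0.0008), Kif3a for MRTFB in B16F10 with DESeq2 (0), and Tubg1 for MRTFA in E0771 with TMM (0.0083), edgeR and DESeq2 (0.0215 with either). Over left-out libraries, for MRTFA in B16F10, Kif11 ranged from −0.0418 to 0.0504, Kif1c from −0.0893 to 0.0308, Kif23 from −0.0111 to 0.216, Kif2a from −0.0504 to 0.108, Kif3a from −0.109 to 0.0307, Kif5b from −0.0838 to 0.013 and Tuba1b from −0.0359 to 0.0229. For MRTFB in B16F10, Kif1c ranged from −0.0015 to 0.0989, Kif3a from −0.0618 to 0.0739, Kif5b from −0.0701 to 0.0238, Tubb3 from −0.295 to 0.0649, Tubb6 from −0.111 to 0.475 and Tubg1 from −0.0002 to 0.0266. For MRTFA in E0771, Kifc1 ranged from −0.0754 to 0.259 and Tubg1 from −0.0936 to 0.0935. For MRTFB in E0771, Kif11 ranged from −0.210 to 0.0243, Kif1c from −0.180 to 0.0765, Kif3a from −0.0831 to 0.0636, Kifc1 from −0.196 to 0.139, Tuba1a from −0.0265 to 0.260, Tubb5 from −0.0939 to 0.0357, Tubb6 from −0.0037 to 0.414 and Tubg1 from −0.0349 to 0.152.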
